A study of Mus musculus with 383 samples.

Results

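The Hox genes encode the homeodomain transcription factors that give cells their address along the head-to-tail axis. The members described here are all 36 protein-coding genes of the 29779 in the deposited count table whose symbol is Hox, a cluster letter and a number. They were chosen by name alone: 9 from the Hoxa cluster, 10 from Hoxb, 8 from Hoxc and 9 from Hoxd. The study sequenced RNA of single nuclei taken from the DMV, the vagal dorsal motor nucleus, a brainstem group whose cholinergic neurons send parasympathetic output to the viscera. All 383 nuclei form 1 group. They came from male Chat-IRES-Cre mice on a C57BL/6 background, in which Cre recombinase follows the choline acetyltransferase gene. At 10 weeks of age the mice had received 100 nL of AAV9-DIO-H2b-mCherry, a Cre-dependent virus that tags nuclei red, in the DMV. Tissue was taken 16 days later, and mCherry-positive nuclei were sorted 1 to a well of 96-well plates for Smart-seq2, a full-length method without molecular identifiers. The selection therefore rests on the Chat promoter, on where the virus spread and on Cre. Tissue was pooled and no nucleus is tied to an animal, so all nuclei count as 1 sample, and no test between animals was possible.

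In mammals the Hox genes lie in 4 clusters on different chromosomes, and genes at the same position in different clusters form paralog groups numbered 1 to 13. Low-numbered genes are switched on in the hindbrain and high-numbered genes further back along the spinal cord. In the caudal hindbrain, where vagal motor neurons arise, groups 3 to 5 set the identity of the segments, together with cofactors of the Pbx and Meis families. Some neurons keep their Hox genes on after birth.

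Of the 383 nuclei, 316 had a read in at least 1000 genes and were retained, with a median of 1440080 reads (range 1590 to 4699420) and 11234.5 genes. For comparisons between nuclei, each was thinned at random to 500000 reads, a depth that 295 retained nuclei reached and 21 did not. The labelled cell type was checked first: Chat, the enzyme that makes acetylcholine, was detected in 304 of 316 nuclei (96.2%), Slc18a3, which loads it into vesicles, in 94.0%, and Tbx20, a factor of visceral motor neurons, in 88.9%. Clusters were built without any gene of the Hox clusters. A single cluster of 23 nuclei is called somatic motor-like: at 500000 reads its mean share was 35.5% for the listed somatic motor markers and 6.96% for the visceral ones, and Calcb led it by fold. The other 293 nuclei are called visceral motor-like (7.66% and 57.6%). The single somatic markers ran from 4.35% to 65.2% in the somatic cluster before thinning. Astrocyte markers had a mean share there of 31.3% at 500000 reads, against 27.5% in the visceral nuclei. Over all 316 nuclei, markers of other cell types were also read. Their mean share was 33.4% of nuclei for astrocyte markers, 15.3% for microglial markers and 9.49% for markers of oligodendrocyte precursors. No nuclei known to lack Hox genes are in the data, so the microglial share serves below as a level for comparison. It is a mean over 5 genes whose own shares ran from 2.85% to 42.4%, and the choice of list matters: under the astrocyte mean would also lie Hoxa2, Hoxa3, Hoxa4 and Hoxb2. Above the oligodendrocyte precursor mean would lie Hoxb6, which is under the microglial one.

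The homeobox, the stretch of 180 bases that encodes the DNA-binding homeodomain, is shown for Hoxc4, the most widely read Hox gene, and for its least widely read paralog of group 4, Hoxa4, because their likeness bears on whether reads can be assigned to 1 of them. Both were read from the GENCODE M21 transcripts of GRCm38, 5′ to 3′ on the coding strand, and both lie in exon 2 of 2. They are at chr15:103035663-103035842 (plus strand) for Hoxc4 and chr6:52190483-52190662 (minus strand) for Hoxa4. Capitals mark bases of Hoxa4 that differ from Hoxc4.
Hoxc4: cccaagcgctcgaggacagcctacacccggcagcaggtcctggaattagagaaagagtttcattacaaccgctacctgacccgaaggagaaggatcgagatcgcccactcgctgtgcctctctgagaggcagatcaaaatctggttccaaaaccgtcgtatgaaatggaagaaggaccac
Hoxa4: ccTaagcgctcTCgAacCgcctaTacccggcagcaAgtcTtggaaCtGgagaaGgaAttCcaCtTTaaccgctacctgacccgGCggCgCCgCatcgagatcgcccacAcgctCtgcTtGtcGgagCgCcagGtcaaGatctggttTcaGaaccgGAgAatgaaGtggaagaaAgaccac

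Even here, in the most conserved part of these genes, the paralogs differed at 38 bases, an identity of 78.9%. Across whole transcripts their longest shared exact run was 17 bases. Of all pairs within groups 4 and 5, the longest runs were 29 bases for Hoxb4 with Hoxd4 and 26 for Hoxa5 with Hoxb5. The homeoboxes of Hoxa5 and Hoxb5 were 83.9% identical. How the submitters' counting treated reads that match more than 1 gene is not given in the sources used here.

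Detection dropped between paralog groups 5 and 6. Of the 15 genes of groups 1 to 5, 12 had a read in at least 10% of the 316 nuclei. Of the 21 genes of groups 6 to 13, 1 did, Hoxb6. Together 13 of 36 Hox genes passed this share, against 63.1% of all 29779 genes in the table. At least 1 gene of groups 1 to 5 was detected in 311 nuclei (98.4%, exact binomial 95% interval 96.3 to 99.5; all intervals here cover counting error only). Groups 4 and 5 together held 79.0% of all Hox reads, groups 1 to 3 held 18.3% and groups 6 to 13 held 2.68%.

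**Figure D1:**
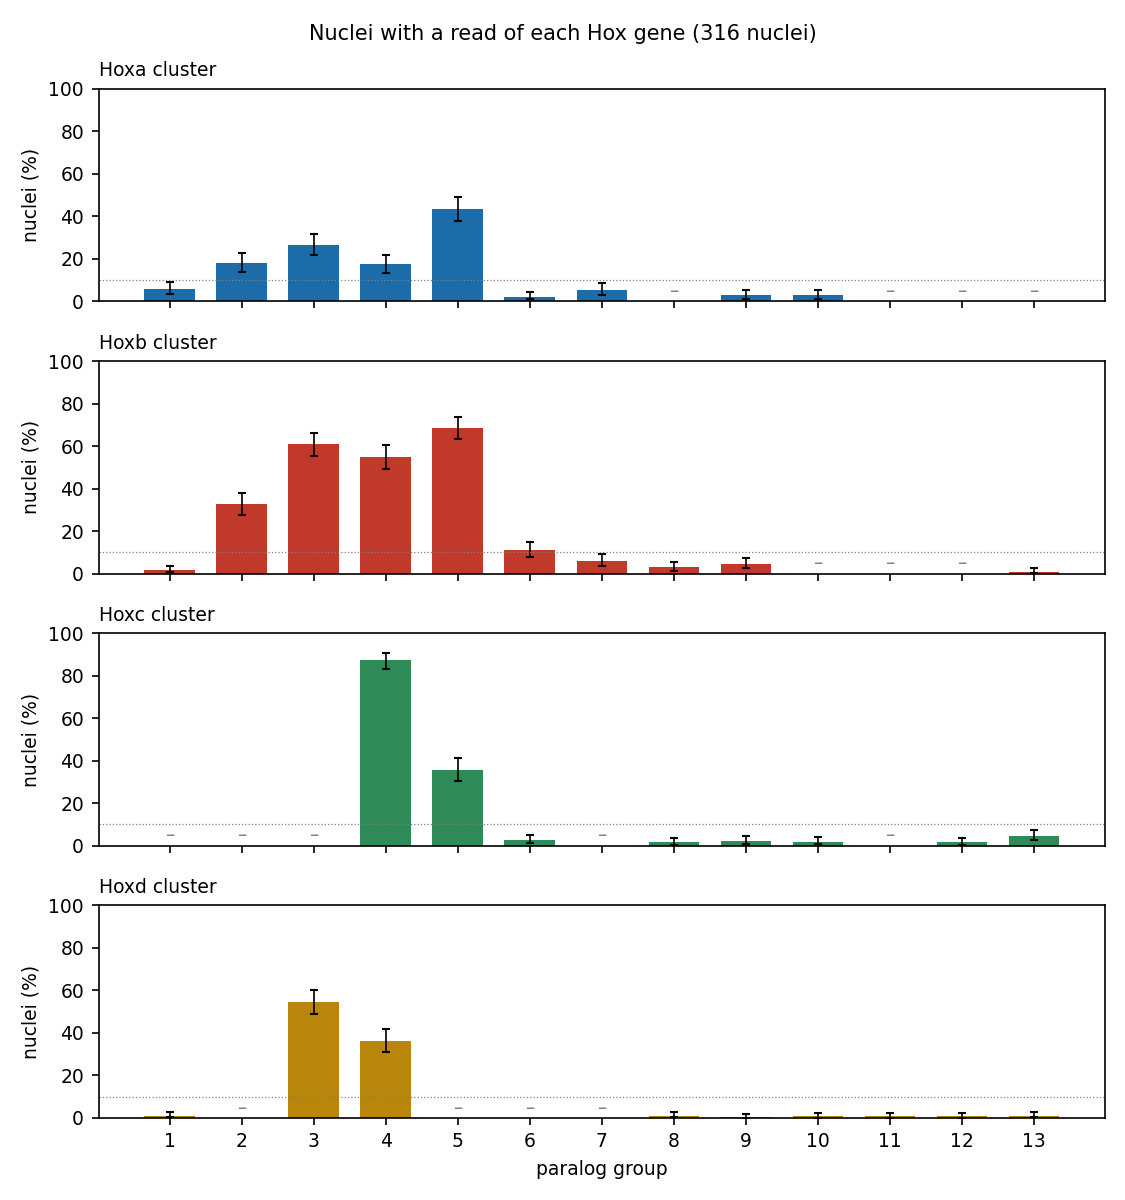
Share of 316 nuclei (vertical axis, percent) with at least 1 read of each Hox gene, by paralog group (horizontal axis) and cluster (panels). Error bars are exact binomial 95% intervals, the dotted line marks 10%, and a dash marks a group with no gene in the table for that cluster. Bars are tall in groups 2 to 5 and low from group 6 on, with Hoxc4 the tallest at 87.3%.

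Hoxc4, at the head end of its cluster (chr15:103018934-103036852, plus strand), was the most widely read Hox gene. It was detected in 276 of 316 nuclei (87.3%, 83.2 to 90.8), and at 500000 reads its count ranged from 0 to 117 with a median of 20. Summed over nuclei its level was 50.1 CPM (reads scaled to library size), or 19.5 CPM per kilobase of exon, a level per length above those of Hoxa5 (11.7) and Hoxb5 (10.8). With TMM-scaled library sizes, averaged over nuclei, the order of Hoxc4 and Hoxb5 turned, at 48.4 CPM for Hoxc4 and 88.0 CPM for Hoxb5, but this rested on 1 shallow nucleus, with 300 Hoxb5 reads among 65485. Without it Hoxb5 was at 29.2 CPM on that scale. Hoxc4 reads were spread over many nuclei: the 10 nuclei with the most Hoxc4 reads held 13.7% of them. The other members of group 4 were lower: Hoxb4 was detected in 55.1% of nuclei, Hoxd4 in 36.4% and Hoxa4 in 17.4%. In 272 visceral motor-like nuclei at 500000 reads, Hoxc4 was the sole group 4 gene in 74, whereas Hoxa4 was the sole one in 0 and Hoxd4 in 3. Group 4 as a whole was undetected in 15 of these nuclei.

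The group 5 genes differed more from nucleus to nucleus. Hoxb5 (chr11:96303336-96306121, plus strand) was detected in 217 nuclei (68.7%, 63.2 to 73.7), with a median of 7 reads and a highest value of 107 at 500000 reads. Hoxa5 (chr6:52201754-52204587, minus strand), known for its part in respiratory and brainstem development, was detected in 137 (43.4%, 37.8 to 49.0), with a median of 0 and a highest value of 187. Hoxc5 was detected in 113 (35.8%, 30.5 to 41.3), with a median of 0 and a highest value of 62. Where a gene was detected at that depth, its median was 17 reads for Hoxb5, 16 for Hoxa5 and 11 for Hoxc5. Without a read of any group 5 gene were 73 of 316 nuclei.

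Group 3 genes help pattern the caudal hindbrain segments. Hoxb3 was detected in 60.8% of nuclei (55.1 to 66.2), Hoxd3 in 54.4% (48.8 to 60.0) and Hoxa3 in 26.6% (21.8 to 31.8). Counts were lower than in group 5, with a median over the positive nuclei at 500000 reads of 6 for Hoxb3, 6 for Hoxd3 and 4 for Hoxa3. Of group 2, Hoxb2 was detected in 32.6% of nuclei and Hoxa2, the most anteriorly expressed Hox gene, in 18.0%. Their order by level was the reverse: Hoxa2 reached 2.48 CPM per kilobase of exon and Hoxb2 0.451. The shares of Hoxa2 and Hoxa4 lie close to the microglial level of 15.3%, but where detected at 500000 reads they had medians of 8.5 and 5 reads. Group 1 genes act early in the hindbrain, and of these Hoxb1 was detected in 1.58% of nuclei and Hoxd1 in 0.949%.

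Shares also differed among blocks of 96 consecutive nucleus numbers, whose relation to plates the labels do not give. At 500000 reads Hoxd4 ranged from 17.8% in numbers 289 to 384 to 44.7% in numbers 97 to 192, while Hoxc4 stayed between 81.8% and 89.5% and Hoxb5 between 65.2% and 72.7%.

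The genes of groups 6 to 13, which pattern the spinal cord, were read rarely and thinly. Hoxb6 was found in 35 nuclei (11.1%, 7.84 to 15.1), or 8.14% at 500000 reads. The other 20 ranged from 0.316% (Hoxd9, in 1 nucleus) to 6.01% (Hoxb7), and next came Hoxa7 (5.38%), Hoxb9 and Hoxc13 (4.43% each). All 21 shares lie below the mean microglial share of 15.3% and are not read as expression. That level does not show expression to be absent, and Hoxb6 lies above the oligodendrocyte precursor mean of 9.49%. Where detected at 500000 reads, Hoxb6 and Hoxa7 had a median of 5 reads and Hoxc13 of 9. Hoxa4 had 5 and Hoxa2 8.5 by the same measure. Others were lower, such as Hoxb7 at 3 and Hoxb9 at 2. Of the 180 positive values in groups 6 to 13, 26.1% were a single read and the median was 4 reads, against 8.54% and 19 reads for the 1722 positive values of groups 1 to 5. In all, 117 nuclei (37.0%) had a read of any such gene, a share that was 29.2% at 500000 reads and 12.5% when at least 5 of them were required.

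Reads of these posterior genes were most frequent in 1 cluster of nuclei. In visceral cluster 4, 18 of 30 nuclei had a gene of groups 6 to 13 (60.0%, 40.6 to 77.3), and 12 of 30 had one of groups 10 to 13, against 12 of 242 in the other visceral nuclei (4.96%). Of the somatic motor-like nuclei, 5 of 23 had a gene of groups 10 to 13 (21.7%). Cluster 4 had Atf3, a stress and injury response gene, as its leading gene by fold. It also had the highest mean shares of any visceral cluster for the listed markers of astrocytes (51.3% against 18.8 to 32.5% in the others) and microglia (28.7% against 5.88 to 15.0%). Its share of nuclei with Chat was 80.0%. The thinned nuclei of cluster 4 had a median of 11680.5 genes, the highest of any visceral cluster, against 9419 to 10884 in the others. The share of other, equally rare genes in cluster 4 was not counted. The part that gene number or the astrocyte and microglial transcripts play in the posterior Hox reads was not tested. Cluster 8 stood next, with 9 of 17 nuclei (52.9%, 27.8 to 77.0). Its mean shares were 24.7% for astrocyte and 5.88% for microglial markers, and its thinned nuclei had a median of 9984 genes.

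At 500000 reads a nucleus had a median of 6 Hox genes (quartiles 4 and 7.5, range 0 to 12). For 155 of 295 nuclei (52.5%) the highest paralog group detected was group 5, and for 46 (15.6%) it was group 4. With 5 reads required the share stopping at group 5 was 61.7%. Over 316 nuclei, the number of Hox genes had a Spearman rho of 0.013 with total reads and 0.31 with the number of all genes read, points that share the same libraries. After thinning, rho with the number of all genes read was 0.24 over 295 nuclei.

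**Figure D2:**
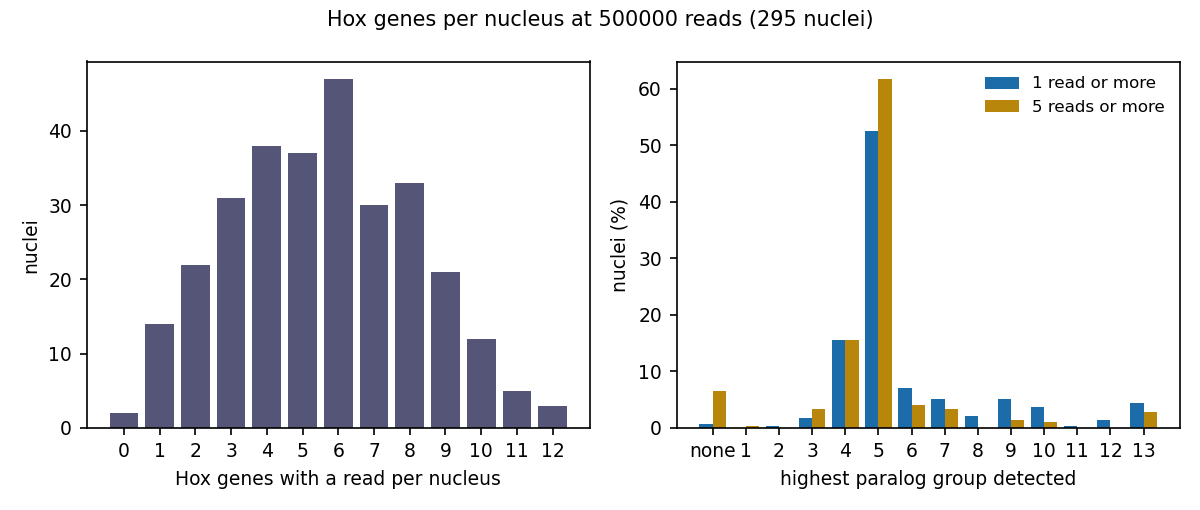
Left, number of nuclei (vertical axis) by number of Hox genes with a read (horizontal axis), for 295 nuclei at 500000 reads. Right, share of nuclei (percent) by the highest paralog group detected, with 1 read or more (blue) and 5 reads or more (gold). The left distribution centres on 6 genes, and the right one has its main peak at group 5, 52.5% and 61.7%.

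Pairs of Hox genes had higher co-detection values than gene pairs in general. Phi, the correlation between the presence of 2 genes over nuclei, was computed over 272 visceral motor-like nuclei at 500000 reads for genes present in 10 to 90% of them, which 12 Hox genes were. Of their 66 pairs, 16 had a phi of at least 0.2, against 1.36% of all 94868425 gene pairs, and the median phi was 0.11 against 0.03. The count was 8 at 200000 reads and 9 with at least 5 reads required. These counts describe 1 sample and carry no test.

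The highest value joined Hoxa5 and Hoxb5, the paralogs on chromosomes 6 and 11. Both were present in 110 nuclei where independence would give 86.8, and phi was 0.38. Their relation was nested: of 123 nuclei with Hoxa5, 13 lacked Hoxb5, while 82 nuclei had Hoxb5 without Hoxa5. Hoxb5 was present in 89.4% of nuclei with Hoxa5 and in 55.0% of those without. The next pairs were Hoxa5 with Hoxd4 (phi 0.32), Hoxa2 with Hoxa5 (0.31), Hoxb5 with Hoxd4 (0.27) and Hoxa5 with Hoxc5 (0.27). Lowest stood Hoxb2 with Hoxd4 (-0.12), Hoxa2 with Hoxb2 (-0.06) and Hoxa5 with Hoxb2 (-0.06). Without thinning, the value of Hoxb2 with Hoxd4 was 0.03. Hoxb2 had low values with most genes, the highest being 0.09 with Hoxb5 and Hoxc5.

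Median values differed little by position in the clusters. The median phi was 0.14 for 8 pairs of neighbours in a cluster, 0.13 for 6 pairs further apart in the same cluster, 0.09 for 13 pairs in the same paralog group and 0.09 for 39 pairs sharing neither. Of the pairs checked inside single clusters of nuclei, some had lower values there and others did not. Within the 8 visceral clusters where both genes varied, the phi of Hoxa5 with Hoxb5 had a median of 0.19 and was positive in 6, and without clusters 4, 6 and 11 it was 0.25. Hoxa2 with Hoxa5 was positive within 8 of 8 clusters (median 0.22). Hoxa5 with Hoxd3 was positive within 9 of 9, with a median of 0.20, the same as its value of 0.20 over all visceral nuclei. That value depended on the read minimum. With at least 5 reads required it was 0.06, against 0.36 for Hoxa5 with Hoxb5 and 0.24 for Hoxa2 with Hoxa5.

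**Figure D3:**
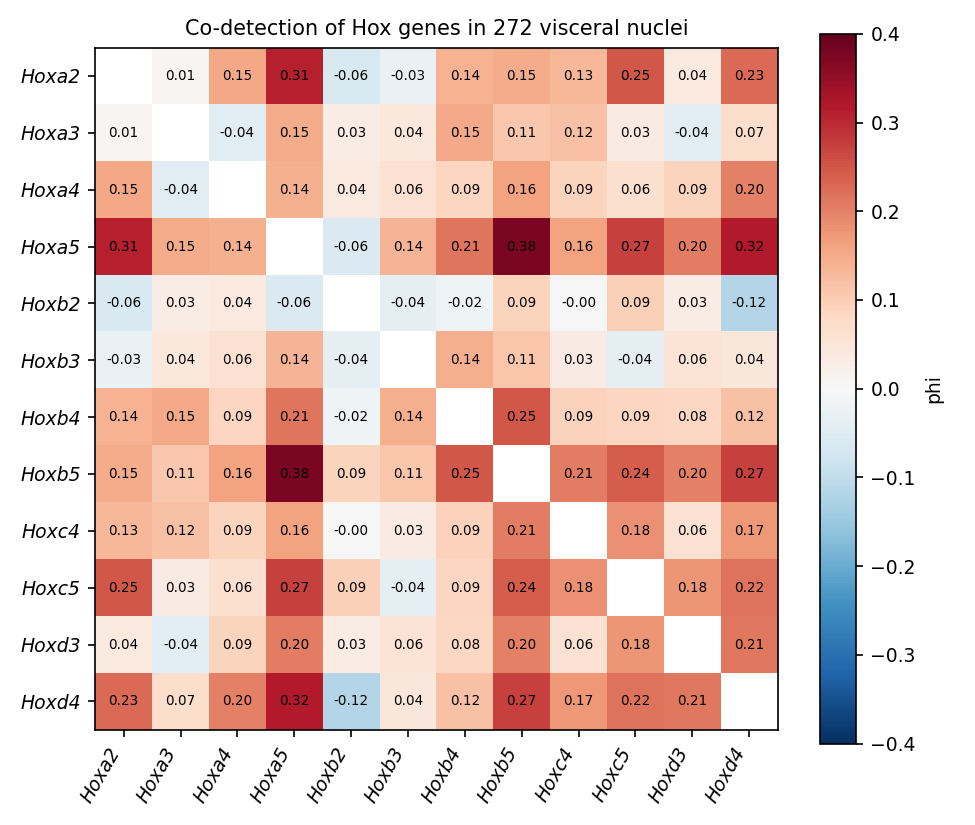
Phi for the 66 pairs of 12 Hox genes over 272 visceral motor-like nuclei at 500000 reads. Rows and columns are genes in cluster and paralog order, red is positive and blue negative. Hoxa5 has the darkest red cells, up to 0.38 with Hoxb5, and the Hoxb2 row is pale or blue, down to -0.12.

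Because Hoxa2 and Hoxa5 share a cluster and were found together, the 250 bases before their starts are shown from the RefSeq promoter table (GRCm38.p6), which had entries for 20 of the 36 genes. Hoxa2 lies at chr6:52164832-52165081 and Hoxa5 at chr6:52204588-52204837, both on the minus strand and printed 5′ to 3′. Capitals mark matches to TGATNNAT, the type of sequence bound by Pbx and Hox proteins together, searched on both strands.
Hoxa2: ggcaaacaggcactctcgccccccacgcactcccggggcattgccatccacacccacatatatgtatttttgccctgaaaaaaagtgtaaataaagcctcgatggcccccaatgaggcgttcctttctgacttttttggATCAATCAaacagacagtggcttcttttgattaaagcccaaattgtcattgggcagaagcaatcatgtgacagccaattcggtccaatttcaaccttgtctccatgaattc
Hoxa5: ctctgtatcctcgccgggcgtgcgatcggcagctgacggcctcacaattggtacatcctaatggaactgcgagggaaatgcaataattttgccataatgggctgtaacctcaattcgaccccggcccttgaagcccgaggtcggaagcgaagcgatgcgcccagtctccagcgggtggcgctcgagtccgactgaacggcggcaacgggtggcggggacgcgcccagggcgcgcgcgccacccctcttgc

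The Hoxa2 window held 1 match and the Hoxa5 window 0. Over all Hox entries, 4 of 22 windows held the motif, against 7.68% of 32851 windows in the table. A match is a run of letters, not a bound site.

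The group 5 genes occurred in these combinations. In 272 visceral motor-like nuclei, all 3 genes were present in 58 (21.3%), Hoxa5 and Hoxb5 in 52, Hoxb5 and Hoxc5 in 27, and Hoxa5 and Hoxc5 in 5. Hoxb5 stood alone in 55 nuclei, Hoxc5 in 10 and Hoxa5 in 8, and 57 nuclei (21.0%) had none.

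Somatic motor-like nuclei had fewer Hox genes than visceral ones. Hoxd3 was present in 1 of 23 somatic nuclei (4.35%, 0.110 to 21.9) and in 151 of 272 visceral nuclei (55.5%, 49.4 to 61.5), a difference of -51.2 percentage points. Its summed level was 0.238 CPM in the somatic nuclei and 9.10 CPM in the visceral. Hoxc4 was present in 13 of 23 (56.5%, 34.5 to 76.8) against 89.7% (85.5 to 93.1), a difference of -33.2 points, and its median was 4.48 CPM in somatic and 44.3 CPM in visceral nuclei. With 30 points set as the size of note, 2 of the 13 widely read Hox genes were lower in somatic nuclei and 0 were higher, where 1.84% of 18798 genes were lower by that much and 1.22% higher (3.06% either way). Over all 36 Hox genes the count was also 2, against 1.99% of the 29773 genes in at least 1 nucleus. Without thinning, 1 of 13 passed, since Hoxc4 then differed by less (60.9% against 89.4%).

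Most other members had lower shares too. Of the 13 genes, 12 had a lower share in somatic nuclei, with a median difference of -19.4 points against -0.975 for all 18798 genes. How many of all genes were lower by any amount was not counted, and their median was negative too. Hoxa3 was present in 0 of 23 nuclei, which allows a share of up to 13.0% by a floor of 3 counts (14.8% by the exact interval), against 26.1% of visceral nuclei, and Hoxd4 in 8.70% against 35.3%. The intervals of Hoxa3, Hoxc4, Hoxd3 and Hoxd4 did not overlap between classes. These intervals cover counting error only, and non-overlap was not counted over all genes, so the list cannot be set against a background. Hoxa4 was also present in 0 of 23 somatic nuclei, against 16.9%. Hoxb5 was present in 47.8% against 70.6% and Hoxa5 in 34.8% against 45.2%, with overlapping intervals. Hoxb6 was the exception, at 8.70% against 8.09%. At 500000 reads the median number of Hox genes was 3 in somatic and 6 in visceral nuclei, while the median number of all genes read was 9852 and 10241.5. Median depth before thinning was higher in the somatic nuclei, 1633950 against 1437260 reads. The comparison sets 1 cluster of 23 nuclei of unknown animals against the rest, and no test of the difference was possible.

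**Figure D4:**
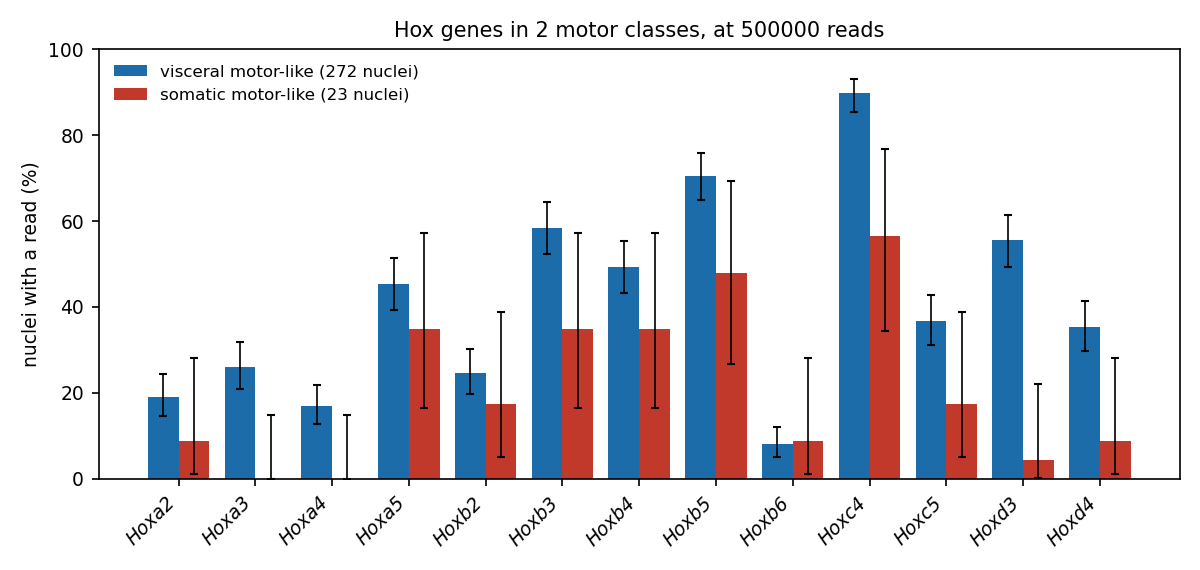
Share of nuclei (vertical axis, percent) with a read of each of 13 Hox genes at 500000 reads, in 272 visceral motor-like (blue) and 23 somatic motor-like nuclei (red). Error bars are exact binomial 95% intervals. The red bar is below the blue one for 12 genes, most of all for Hoxd3 (4.35% against 55.5%).

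Among visceral motor-like nuclei, 11 clusters were compared, of 12 to 41 nuclei at 500000 reads. Of 13 Hox genes, 12 had shares that ranged over at least 30 points between clusters, but so did 59% of 18798 genes, and 87.7% of genes present in 20 to 80% of nuclei, where 9 of 9 Hox genes did. Over all 36 Hox genes the count was again 12, against 37.7% of 29773 genes. The count is thus not far from the background. For single genes, the range of Hoxb5, 89.5 points, exceeded that of 99.9% of genes present in at least 10% of nuclei, and Hoxa5 (80.0 points), Hoxd3 (72.8) and Hoxb4 (67.5) exceeded 99.6%, 98.7% and 97.3%.

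Cluster 6 showed the clearest contrast. Its leading gene was Cck, the peptide cholecystokinin, present in 73.7% of its nuclei, and it had Cckar, a cholecystokinin receptor, in 94.7%. In its 19 nuclei Hoxa5 was present in 0 (which allows up to 15.8% by a floor of 3 counts), Hoxb5 in 2 (10.5%, 1.30 to 33.1) and Hoxb4 in 15.8%. Hoxd3, by contrast, was present in 17 of 19 (89.5%, 66.9 to 98.7), the highest of any cluster, at 18.5 CPM. Hoxc4 was present in 68.4%. The group 3 genes as a set were thus found in 94.7% of cluster 6 nuclei and group 5 in 21.1% (6.05 to 45.6). Its markers of astrocytes (18.9%) and microglia (11.6%) were within the range of the other clusters. Its thinned nuclei had a median of 9419 genes, the lowest of any visceral cluster and the same as in cluster 3. The mean share of visceral motor markers was also the lowest in cluster 6, at 36.8% against 42.7 to 70.0% in the others.

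At the other end were clusters 1, 2 and 9. Hoxb5 was present in 39 of 41, 38 of 40 and 18 of 18 nuclei, and Hoxa5 in 73.2%, 80.0% and 61.1%. Cluster 1 also had the highest shares of Hoxc5 (61.0%) and Hoxd4 (61.0%), and its nuclei had a median of 8 Hox genes. Summed Hox reads had a median of 244 CPM in cluster 1, 200.1 CPM in cluster 2 and 252 CPM in cluster 9, against 58.8 CPM in cluster 6 and 28.4 CPM in cluster 11.

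Cluster 11, of 12 nuclei, had low shares of several members. Hoxa5, Hoxa2, Hoxa4 and Hoxd4 were each present in 0 of 12, which allows up to 25.0% by the same floor, Hoxd3 in 25.0% and Hoxc4 in 66.7%, its lowest share. Hoxb5 was present in 6 of 12. Hoxa3 and Hoxb2 were not low there, each in 4 of 12 (33.3%, against 26.1% and 24.6% of all visceral nuclei). Unlike in cluster 6, Hoxd3 was not high there. In cluster 4 Hoxd3 was present in 5 of 30 nuclei (16.7%, 5.64 to 34.7), and the marker values given above for that cluster apply here too. Cluster 7 combined Hoxb5 in 85.0% of nuclei with Hoxa5 in 25.0% and Hoxd4 in 5.00%.

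**Figure D5:**
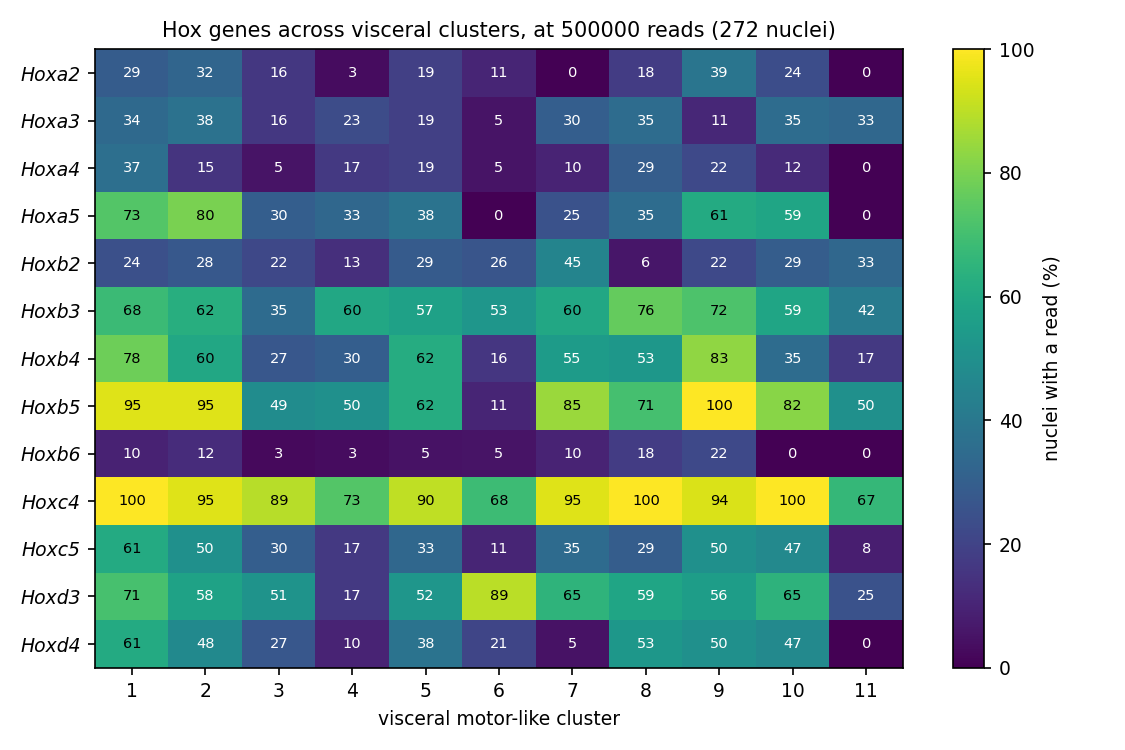
Share of nuclei (colour and printed percent) with a read of each of 13 Hox genes (rows) in 11 visceral motor-like clusters (columns), 272 nuclei at 500000 reads. Hoxa5 and Hoxb5 are high in clusters 1, 2 and 9 and low in cluster 6, where Hoxd3 is highest at 89.5%.

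The genes whose levels ran most like Hoxa5 and Hoxb5 were ranked by Spearman rho over 272 visceral nuclei and 14258 genes, as a description. For both, Npy2r, the neuropeptide Y receptor type 2, came first, with rho 0.63 for Hoxb5 and 0.56 for Hoxa5. Npy2r was present in 74.0% of nuclei with Hoxb5 and in 17.5% of those without, and in 0 of 19 nuclei of cluster 6. In cluster 11 the genes parted, with Npy2r in 0 of 12 nuclei and Hoxb5 in 6. Within 8 clusters their phi had a median of 0.33 and was positive in 6, against 0.52 over all 272 nuclei. Next for Hoxb5 were Nrp2 (0.57), Cd9 (0.54), Gabbr1 (0.52) and Vstm2a (0.52). Next for Hoxa5 were Cd9 (0.52), Npy4r (0.50), Hpcal1 (0.50) and Kcng1 (0.49). Running opposite were Pcdh7 and Prr16 for Hoxa5 (-0.53 and -0.43) and Stxbp5l, Lhfpl2 and Pcdh7 for Hoxb5 (-0.54, -0.49 and -0.49).

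Hoxb5 had far more such company than Hoxd3. A rho of at least 0.3 was reached by 539 genes for Hoxb5, 133 for Hoxa5 and 4 for Hoxd3, whose closest were Cthrc1 (0.36), Rph3a (0.34), Shisa9 (0.32) and Mfsd10 (0.30), with Car10 (-0.34), Pcdh17 (-0.34) and Gm46329 (-0.32) lowest. Read levels differed too: over the 295 thinned nuclei the median was 7 reads for Hoxb5, 0 for Hoxa5 and 1 for Hoxd3. Where detected, the medians were 17, 16 and 6 reads. No such count was made for other genes of similar level, so the part that read level plays in these counts was not tested. Between Hox genes, rho was 0.49 for Hoxa5 with Hoxb5 and 0.16 for Hoxa5 with Hoxd3.

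The partners of Hox proteins were read far more widely than the Hox genes. All 9 listed cofactors of the Pbx, Meis and Pknox families, which bind DNA with Hox proteins, were detected in at least 10% of nuclei and 8 in at least 50%. Meis1 was found in 99.1%, Pbx3 in 93.7% and Meis3 in 86.7%. At 30 points, 0 of 9 were lower in somatic nuclei and 1, Meis2, was higher, by 40.9 points. Of 20 Polycomb and Trithorax regulators, the chromatin proteins that keep Hox genes off or on, 19 passed 10%, led by Kmt2a (99.1%), Jarid2 (98.7%), Phc2 (97.2%) and Kmt2d (97.2%), and 0 differed by 30 points between the classes in either direction.

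Of all genes counted, 63.1% passed 10%, and of those that did 3.06% differed by 30 points between the classes. Of 18 genes of the retinoic acid pathway, the signal that turns on hindbrain Hox genes in the embryo, 14 passed 10%, with Rarb (87.0%), Rxra (72.2%), Rara (59.8%) and Rdh10 (53.5%) most widespread, and 0 differed by 30 points between classes. Of 13 regulators of hindbrain segmentation and of caudal identity, 5 passed, among them Nr6a1 (98.1%), Nr2f1 (64.6%), Gdf11 (42.1%) and Nr2f2 (36.7%). Nr2f2 was 33.6 points higher in somatic nuclei. The early segment factor Egr2 (3.48%) and the caudal factors Cdx1, Cdx2 and Cdx4 (1.58 to 6.01%) stayed under 10%.

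Some non-coding genes inside the clusters differed between the classes as well. Of 10 listed ones in the table, 5 passed 10%: Hotairm1 (51.9%), Haglr (51.6%), Hoxaas2 (33.5%), Hoxb5os (13.0%) and Hoxaas3 (11.4%). Haglr, beside Hoxd3 on the opposite strand, was 48.2 points lower in somatic nuclei and Hoxaas2, antisense to Hoxa3, 32.4 points lower. In visceral nuclei Haglr was present in 68.2% of nuclei with Hoxd3 and in 33.1% of those without (phi 0.35), and the exons of the pair share 21 bases. Hoxaas2 and Hoxa3, which share 503 exon bases on opposite strands, had a phi of 0.01 over 295 nuclei. Larger overlaps touch other members: 53.1% of the exon bases of Hoxd3 are shared with Gm28230 on the same strand, 52.9% of those of Hoxb3 with the antisense Hoxb3os, and Hoxd3 and Hoxd4 share 388 bases on the same strand. Reads in the same-strand stretches cannot be assigned to 1 gene by strand. Whether counting used strand at all is not given in the sources used here, so reads of Hoxb3 and Hoxb3os cannot be told apart either. Hoxb5 shares 100 exon bases with the antisense Hoxb5os.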

How the data were processed

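The authors deposited 1 table of whole-number read counts per gene and nucleus (counts, not normalized, per the file header and its values). Smart-seq2 libraries were made from sorted nuclei with 22 cycles of cDNA amplification, per the labels' protocols. bcl2fastq, STAR, Picard, edgeR and Seurat and the build GRCm38 are named in the submitters' processing notes. The annotation, the counting tool and its strand setting are not given in the sources used here. A protocol line of the labels describes sections around another nucleus than the DMV; the region is given here as labelled.

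All 383 columns were matched to nuclei by their label, and 0 were identical to another. Nuclei with at least 1000 genes with a read were retained. Counts were thinned without replacement to 500000 reads (seeded). Clusters came from scanpy 1.11.5 and leidenalg 0.10.2 (2000 variable genes, 15 components, 10 neighbours, resolution 1), with all genes in the Hox clusters left out, and were classed by mean marker shares. Thinning, phi and the rule of 30 points were run on simulated data. The rule was run there on counts that were not thinned, and phi on many more points than there are nuclei. These runs therefore do not cover the settings of the reported comparisons. Shares carry exact Clopper-Pearson 95% intervals, which cover counting error only, because amplified copies of a molecule were counted as reads. edgeR 4.0.16 gave TMM-scaled sizes for an alternative. No doublet caller was run, because nuclei were sorted singly.

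Every Hox gene entered the counts. Those in at least 10% of nuclei were named in full, with the 5 highest and 3 lowest phi pairs, the 5 most and 3 least alike genes at a rho (log2(CPM + 1), thinned reads, genes in at least 20% of visceral nuclei) of at least 0.3 in size for Hoxa5, Hoxb5 and Hoxd3, and the 4 most detected genes of each list; other names were chosen after their values were seen. A few genes and sequences that this rule names are not reported here. Members and lists were chosen with earlier results of these data known. Leaving out cluster 4 or 6 was chosen after seeing the data.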

Additional observations from a re-analysis of the deposited data

Results flagged for a closer look

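Hox reads also appeared among the nuclei left out for having fewer than 1000 genes with a read. Any Hox gene was found in 4 of these 67 nuclei (5.97%, exact binomial 95% interval 1.65 to 14.6), as 489 reads of 3 genes among 383383 reads. Of these reads 349 were of Hoxb5, in 3 nuclei, 139 of Hoxa7, in 1, and 1 of Hoxa5. Among retained nuclei, Hoxb5 and Hoxa7 both had their highest CPM in a nucleus of 65485 reads. The count of 4 nuclei is 1 more than the floor of 3 nuclei (4.48%), which is why it is listed, and no test stands behind it. The 67 nuclei left out had a median of 2328 reads, and they enter no comparison.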

How the results depend on the processing

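No paired analysis was possible because all nuclei form 1 group and each number names a single nucleus. The number of Hox genes in at least 10% of nuclei was 12 or 13 under each alternative run. With at least 5 reads, the median of Hox genes per nucleus was 3 (6 as reported), the share of nuclei with a group 5 gene 71.2% (77.3%), the pairs with phi of at least 0.2 numbered 9 (16) and the genes ranging 30 points over visceral clusters 7 (12). The share with a gene of groups 6 to 13 (29.2%) was 22.4% with at least 2 reads, 12.5% with at least 5 and 37.0% without thinning, 35.1% in nucleus numbers 1 to 96 and 20.3% in 193 to 288. Pairs numbered 8 at 200000 reads and 10 in numbers 289 to 384. Genes 30 points apart between somatic and visceral nuclei (2) numbered 1 without thinning and 6, 4 and 7 in numbers 1 to 96, 97 to 192 and 193 to 288. Those ranging 30 points over clusters numbered 6, 7, 7 and 6 in the 4 blocks of numbers. The blocks divide the 23 somatic nuclei and the visceral clusters, and only clusters with at least 8 nuclei in a block were compared. The cause of these changes was not tested. Leaving out cluster 4 or cluster 6 kept every such value within 1.5 times or its interval, with 11 and 13 pairs. Summed levels of some genes moved with the scaling: Hoxb5 was 30.1 CPM pooled, 45.9 as a mean over nuclei and 88.0 with TMM-scaled sizes, and Hoxa7 1.03, 6.35 and 22.6. In both this came from 1 nucleus of 65485 reads, and without it (chosen after seeing the data) the values were 29.5, 31.5 and 29.2 for Hoxb5 and 0.795, 1.04 and 0.994 for Hoxa7.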
